A study of Mus musculus with 5 samples.

Results

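The 626 regions described here were open-chromatin sites at the ends of protein-coding genes that had a called peak in both control libraries and in none of the 3 mutant libraries. They were found by merging the peaks of all 5 libraries on chromosomes 1 to 19 wherever peaks shared at least 1 bp, which gave 85522 regions. Of these, 44386 had a peak in both controls, and 13568 of the 44386 also lay no further than 1 kb from the start or the 3' end of a protein-coding gene in RefSeq, assembly GRCm38.p6, which has the coordinates of mm10. The 626 regions are the part of these gene-end regions with no mutant peak. This was 4.61% of the gene-end regions of both controls. Over all regions of both controls 30.6% had no mutant peak, and over distal regions, with no gene end within 1 kb, 42%. The regions were chosen by presence of a peak in the controls and its absence in the mutants, so these values are given as a description without a test. Permutation tests over libraries are reported only for other regions of genes and for spans of regions in all 5 libraries. These come from the same peak calls.

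The study used ATAC-seq, an assay whose transposase cuts and tags accessible DNA, on the anterior part of the forelimb buds of single mouse embryos at E11.5 (40 to 48 somites), with 50K cells of the forelimb pair per library. The 3 mutants had the genotype PrxCre/+;Smarcc1c/c and the 2 controls Prx+/+;Smarcc1c/c, so both groups were homozygous for the conditional Smarcc1 allele and the mutants alone carried Cre. Prx-Cre is active in the limb mesenchyme, so the ectoderm, vessels, blood, nerves and muscle precursors of a mutant bud keep a working allele, and all of these cells enter a library. In such mixed tissue, fewer cells of a type and less open chromatin per cell cannot be told apart.

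The product of Smarcc1, BAF155, is part of the core of BAF, a SWI/SNF chromatin remodeller, which uses ATP to slide and evict nucleosomes and is best known for keeping enhancers open. Promoters fall into broad types. Those rich in CpG dinucleotides lie in CpG islands, tend to be nucleosome-poor in most cell types and serve widely used genes, whereas CpG-poor promoters more often belong to genes used in few tissues and rely more on bound factors to be opened. The 3' end of a gene, where transcripts are cleaved and polyadenylated, can also hold open chromatin, including enhancers that happen to lie there.

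The promoters of the strongest gene starts among the 626 regions show what kind of sequence was involved. Below are the 250 bases before the RefSeq start of the 4 strongest such promoters with an entry in the RefSeq table, and of Fgf7, a growth factor made by mesenchyme that signals to epithelium, read 5' to 3' on the strand of the gene from RefSeq, GRCm38.p6. The last promoter, of the nucleoside transporter gene Slc29a1, is shown for contrast, as one that had a peak in all 5 libraries at middle strength and has the median CpG content of such promoters. Capitals mark CpG dinucleotides.
Svopl (chr6:38046997-38047246, minus strand): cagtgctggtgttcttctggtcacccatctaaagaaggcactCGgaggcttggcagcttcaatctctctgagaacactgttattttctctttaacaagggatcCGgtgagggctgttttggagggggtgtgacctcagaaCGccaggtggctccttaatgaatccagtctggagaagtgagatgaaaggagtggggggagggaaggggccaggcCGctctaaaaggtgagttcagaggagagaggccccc
Ccdc60 (chr5:116288986-116289235, minus strand): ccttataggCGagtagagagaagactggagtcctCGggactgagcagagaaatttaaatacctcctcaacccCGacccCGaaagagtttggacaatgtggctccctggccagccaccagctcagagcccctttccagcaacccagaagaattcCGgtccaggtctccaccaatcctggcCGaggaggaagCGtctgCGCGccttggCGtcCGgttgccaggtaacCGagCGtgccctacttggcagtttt
Dppa1 (chr11:46629275-46629524, minus strand): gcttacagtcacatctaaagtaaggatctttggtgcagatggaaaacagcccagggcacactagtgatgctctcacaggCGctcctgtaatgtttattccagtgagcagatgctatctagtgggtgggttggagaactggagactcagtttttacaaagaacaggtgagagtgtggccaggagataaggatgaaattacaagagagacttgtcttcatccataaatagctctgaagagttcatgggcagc
Bsx (chr9:40873877-40874126, plus strand): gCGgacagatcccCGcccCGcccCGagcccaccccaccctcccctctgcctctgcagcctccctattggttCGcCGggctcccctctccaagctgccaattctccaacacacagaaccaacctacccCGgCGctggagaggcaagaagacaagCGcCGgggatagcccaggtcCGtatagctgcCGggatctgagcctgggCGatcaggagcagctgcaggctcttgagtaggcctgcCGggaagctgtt
Fgf7 (chr2:126034408-126034657, plus strand): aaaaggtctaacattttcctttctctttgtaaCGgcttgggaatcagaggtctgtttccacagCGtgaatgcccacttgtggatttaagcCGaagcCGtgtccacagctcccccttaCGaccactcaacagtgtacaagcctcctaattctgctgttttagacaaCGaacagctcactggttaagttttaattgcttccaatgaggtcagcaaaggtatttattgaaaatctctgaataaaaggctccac
Slc29a1 (chr17:45595531-45595780, minus strand): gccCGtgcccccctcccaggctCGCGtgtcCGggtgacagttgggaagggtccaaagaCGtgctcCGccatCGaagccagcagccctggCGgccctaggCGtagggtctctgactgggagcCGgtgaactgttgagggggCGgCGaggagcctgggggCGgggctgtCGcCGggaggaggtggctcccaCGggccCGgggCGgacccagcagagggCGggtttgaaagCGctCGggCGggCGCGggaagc

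These stretches held 4 CpGs for Svopl, 13 for Ccdc60, 1 for Dppa1, 14 for Bsx and 6 for Fgf7, against 24 for Slc29a1. The 5 promoters absent from the mutants thus spanned a wide range, and the lowest, that of Dppa1, was almost free of CpG. Their control peaks had similar heights. Svopl, which encodes a transporter-like protein related to a synaptic vesicle protein, had a fold enrichment over background of 5.90 in control 1 and 6.60 in control 2. Ccdc60, a coiled-coil protein gene, had 5.03 and 5.93, and Dppa1, a gene named for its link to pluripotent cells, 4.85 and 6.20. Bsx, a brain homeobox gene, had 5.03 and 5.66. Fgf7 had 6.42 in control 1 and 4.31 in control 2, and the nearest peak of any mutant lay 116812 bp away. The Slc29a1 region, chr17:45594662-45596130, had folds of 4.94, 6.41 and 3.87 in mutants 1, 2 and 3, against 6.07 and 4.99 in controls 1 and 2. The control folds of the promoters without a mutant peak thus overlapped with those of this one, which every library shared. The fold is the authors' value for the peak, set against the background of its own library, and it serves to describe and rank peaks within a list.

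The lists behind these calls differed in length. The controls had 68009 and 59252 peaks on these chromosomes and mutants 1, 2 and 3 had 35988, 42185 and 26581. Read numbers were unknown, and the background of the lists was 4.77 to 6.42 fragments per position. The lowest fold that still made a peak was 2.47, 2.46 and 2.52 in mutants 1, 2 and 3, against 2.43 and 2.29 in controls 1 and 2. Open chromatin below that level gives no peak. Of 28 limb mesenchyme genes with a RefSeq match, 28 had a gene-end peak in each control and in mutants 1 and 2, and 24 in mutant 3. Genes of other tissues had such peaks to differing degrees. In controls 1 and 2 they were at 36 and 34 of 40 neuronal genes, but at only 12 and 10 of 30 blood and immune genes. Such peaks were thus not limited to genes of limb tissue.

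Most of the 626 regions were weak in the controls as well. Their folds ran from 2.60 over a median of 3.81 to 8.32 in control 1, and from 2.43 over 3.23 to 8.35 in control 2. At the median this was a pileup of 21 fragments in control 1 and 23 in control 2, where the smallest peaks of the whole lists had 13 and 16. Gene-end regions that were present in all 5 libraries, 11035 in number, had median folds of 8.84 and 8.22. Their control peaks were also wider, with medians of 1370 and 1262 bp against 410 and 361 bp for the 626. The 1907 gene-end regions found in both controls and in 1 or 2 mutants lay between, with median folds of 4.33 and 3.77. When all regions of both controls were ranked by the mean percentile of their fold in the control lists and divided into deciles, 565 of the 626 (90.3%) were in the 5 weaker deciles. There were 206 in the weakest decile, 8 in deciles 8 to 10 together and 0 in the strongest. Both control folds reached 2 times the highest of the mutant limits at only 21 of the 626. Folds of different libraries rest on different backgrounds, so this is no measure of a loss. Control 1 had the higher fold at 461 of them.

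**Figure D1:**
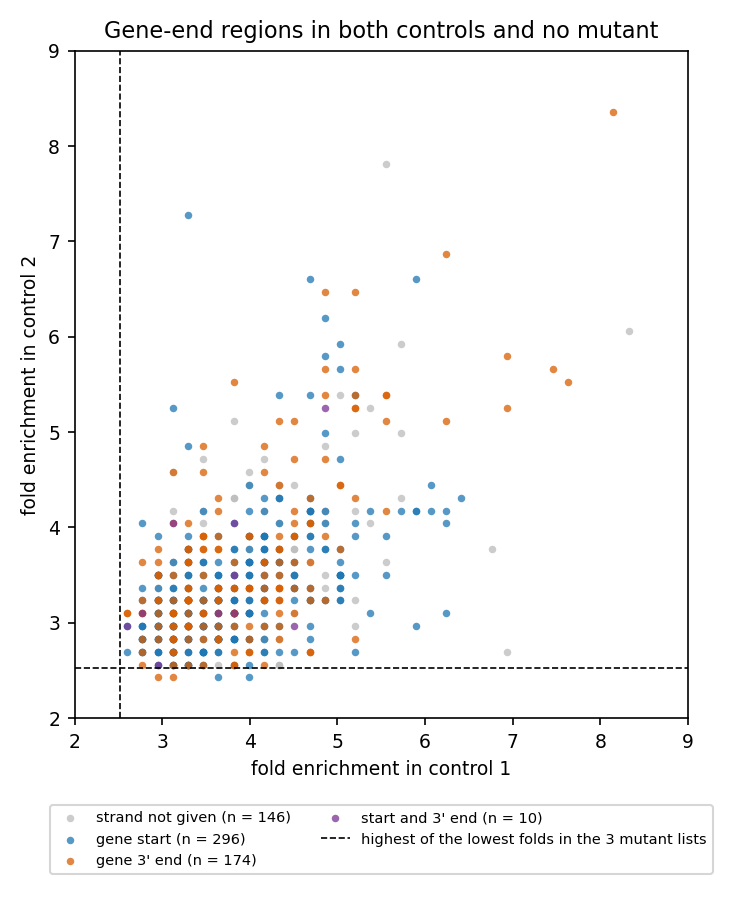
Fold enrichment of each of the 626 regions in control 1 (x axis) and control 2 (y axis), coloured by gene side, with the highest of the lowest folds in the mutant lists (2.52) as dashed lines. Points fall on a grid because folds step with whole fragments, so many points overlap; most lie at low folds, and 11 of the 15 strongest are 3' ends.

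How far the count rested on list length was measured by shortening every list to its 26581 most significant peaks, the length of the shortest. This left 108 gene-end regions of both controls without a mutant peak, 67 of them among the 626, and the share absent was 1.00% in place of 4.61%. All 15 of the 15 strongest regions and 49 of the 50 strongest were still found. Shortening only removes peaks, so one of the 626 could drop out only by losing a control peak. That strong regions stayed follows from their rank in the controls and is no check on their absence from the mutants. Single libraries also set the count. It was 1434 without control 1, 1839 without control 2, 1049 without mutant 2, 797 without mutant 1 and 674 without mutant 3.

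The limits of the set can be seen at its edges. The weakest of the 626 lay beyond the 3' end of Mlycd, which encodes malonyl-CoA decarboxylase, with folds of 2.77 and 2.56. The weakest gene-end region in all 5 libraries, at the potassium channel gene Kcnn2, had folds of 3.55, 4.76 and 3.53 in the mutants, against 2.95 and 2.69 in the controls. By distance, the outermost regions inside the limit were those of Dclk1 and Mxra7 at 996 bp and Dlgap2 at 999 bp. The first left out were those of Ppp1r42 at 1001 bp, Rerg at 1004 bp and Skida1 at 1005 bp. Their control folds overlapped, at 2.83 to 3.81 inside and 2.77 to 3.91 outside.

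Strand, which separates the start of a gene from its 3' end, was at hand for 16456 of 20661 protein-coding genes. By it, 296 of the 626 regions (47.3%) lay at gene starts, 174 (27.8%) at 3' ends and 10 near both a start and a 3' end, while 146 were at genes with strand not at hand. Most open gene ends are starts, so these counts read differently as rates. Of 8618 start regions of both controls 3.43% had no mutant peak, and of 1079 3' regions 16.1%. Counted per library, mutants 1, 2 and 3 lacked 6.52%, 4.87% and 12.6% of the start regions, 8.0% ± 4.07 (SD, n = 3). They lacked 27.9%, 23.7% and 51.5% of the 3' regions, 34.4% ± 15 (SD, n = 3). Mutant 3, with the shortest list, was the highest on both sides, and in each mutant the 3' share was above the start share. Distal regions were absent from a mutant at 57.7% ± 8.59 (SD, n = 3).

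Starts and 3' ends differed in strength, and the comparison changed across it. In the weakest decile 52.0% of start regions and 39.0% of 3' regions had no mutant peak, and in the second 27.9% and 27.8%. In decile 7 the values were 0.817% of 734 starts (6 regions) and 9.30% of 129 3' regions (12 regions). In decile 8 they were 0.0739% of 1354 starts (1 region) and 3.92% of 102 3' regions (4 regions). In the top 2 deciles 0 of 2099 and 0 of 2709 starts and 1 of 55 and 0 of 20 3' regions were absent. Distal regions were above both sides in each of the 10 deciles, with 70.8% absent in the weakest decile, 24.1% in decile 7 and 13% in decile 8. Of the 15 strongest of the 626, 11 were at a 3' end, 1 at a start and 3 at genes with strand not at hand, and of the 50 strongest 22 were at a 3' end and 18 at a start. With lists of equal length 40 starts (0.546%) and 35 3' ends (8.33%) were absent from every mutant.

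**Figure D2:**
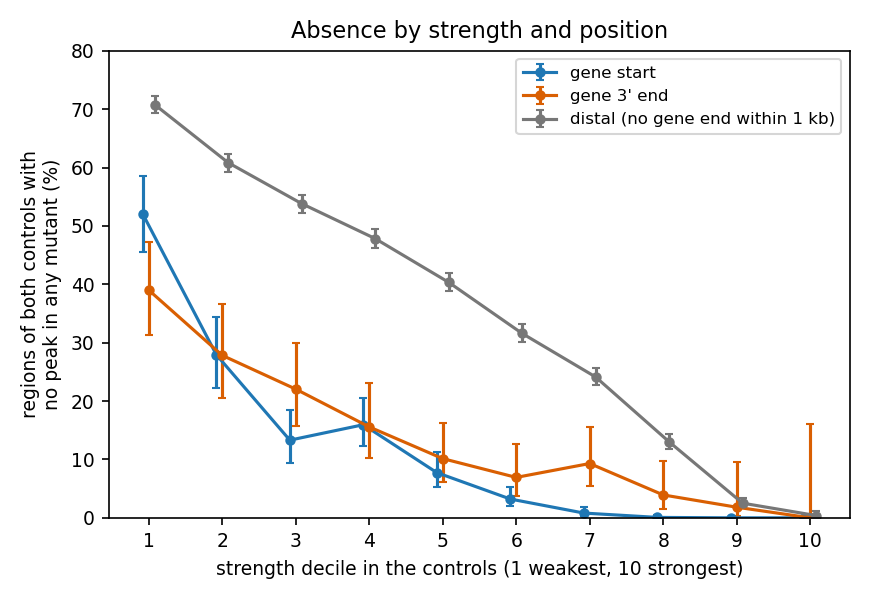
Share of regions of both controls with no peak in any mutant (y axis, %) by strength decile in the controls (x axis, 1 weakest), for gene starts, 3' ends and distal regions, with 95% Wilson intervals that cover the counting of regions and not the spread between embryos. Starts begin at 52.0% in the weakest decile and reach 0 in deciles 9 and 10, 3' ends are at 9.30% in decile 7, and distal regions are above both in each decile.

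The strongest of all was a region beyond the 3' end of Cep152, a scaffold gene for centriole duplication, at chr2:125548546-125549569, 295 bp from that end. Its folds were 8.15 in control 1 and 8.35 in control 2, and the nearest mutant peak lay 41347 bp away. The third was at the 3' end of Nln, which encodes the peptidase neurolysin, at chr13:104023034-104023988, with folds of 6.24 and 6.87. The region at Anxa5, the gene of the phosphatidylserine-binding protein annexin A5, lay inside the gene at chr3:36449160-36450037, 237 bp from the 3' end, with folds of 7.46 and 5.66. That of Fbxo30, a ubiquitin ligase subunit gene, lay over the 3' end at chr10:11305325-11306321 with folds of 7.63 and 5.52, and here a mutant peak lay within the same neighbourhood, 733 bp away. Control 2 was slightly higher at Cep152 and Nln, and control 1 was higher at Anxa5 and Fbxo30.

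The second and sixth regions were at genes with strand not at hand. That of Slc26a7, an anion transporter gene, at chr4:14621042-14622267, had folds of 8.32 and 6.06, and that of Sdr42e1, a dehydrogenase family gene, at chr8:117660248-117660918, had 5.55 and 7.82. Sdr42e1 had a second region among the 626, at chr8:117673500-117673871, with folds of 3.12 and 3.64. The other 3' ends among the strongest 16 were those of Fancc, Ppp2r1b, Gal3st1, Ptpn14, Cog5, Esp1, Gm30679 and Fzd4. Their functions do not form 1 theme. Fancc belongs to the Fanconi anaemia DNA repair pathway, Ppp2r1b is a scaffold of phosphatase 2A, Gal3st1 makes sulfatide lipids, Ptpn14 is a tyrosine phosphatase, Cog5 belongs to a Golgi complex and Esp1 is a secreted pheromone. Fzd4, a WNT receptor, had folds of 5.20 and 5.66 at chr7:89408861-89410086, 24 bp from its 3' end.

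The 3' regions were placed on both sides of the end. Of the 174, 45 covered the end itself and 87 had their summit inside the gene. Within 1 kb of 6 of them lay a start in the RefSeq promoter table, alternative starts of the same gene included, for 4 a noncoding one. That table covers 16456 of 20661 protein-coding genes. No mutant peak lay within 10 kb of 57 of the 174. The start of the genes concerned was mostly shared by all libraries: of 184 genes with such a region at the 3' end only, 136 had a start region in all 5 libraries, and 47 had no gene-end region in all 5. A shared start was common at large. Of all 8618 start regions of both controls, counted by region and not by gene, 86.1% were in all 5 libraries. Cep152, Nln, Fbxo30, Ppp2r1b, Ptpn14, Cog5 and Fzd4 were among the 136. Gal3st1 had no gene-end region in all 5, and Esp1 had no other gene-end region of both controls.

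Gene starts were of different kinds. Of 307 genes with such a region at the start only, 210 had no gene-end region in all 5 libraries, and at 181 it was the only gene-end region of both controls. Fgf7 was of this kind. So were Dct, which encodes an enzyme of melanin synthesis and had folds of 5.90 and 4.18 at chr14:118051296-118052956, and Col6a1, a collagen VI chain gene with 5.90 and 4.18 at chr10:76725414-76726427. The neuronal differentiation factor gene Neurod1 had 4.33 and 4.31 over its start at chr2:79456517-79457153. The other kind lay beside a start region that every library kept, as 87 of the 307 genes did. The peak at Hhip, a Hedgehog target that encodes an antagonist of the ligand, was of this kind. It lay outside the gene at chr8:80058412-80058873, 352 bp from the start, with folds of 3.81 and 2.96, and 247 bp from a region present in all 5 libraries.

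Nearness to such shared regions was common among starts. Of the 296 start regions 85 (28.7%) lay within 1 kb of a region present in all 5 libraries, and of the 174 3' regions 19 (10.9%). Over the whole set it was 132 of 626 (21.1%), against 16.0% of the gene-end regions in 1 or 2 mutants and 7.20% of those in all 5, for which the nearest other such region was taken. This order rested on the peak lists as deposited: the share of the set was 9.41% and 4.28% when −log10 q had to reach 5 and 10, and 3.70% with lists of equal length. It was 2.73% where regions with a mutant peak within 500 bp were left out. A mutant peak lay within 500 bp of 186 of the 626 (29.7%) and within 100 bp of 46, so these lay at the flank of a stretch that was open in a mutant. At the other extreme, 198 (31.6%) had no mutant peak within 10 kb. The shared regions beside one of the 626, 129 in number, covered a median of 1054, 1131 and 798 bp in mutants 1, 2 and 3, against 1228 and 1128 bp in controls 1 and 2. The mutant mean differed from the control mean by -184 bp, and mutant 2 lay within the range of the controls (exact two-sided permutation test over libraries, p = 0.4, n = 2 and 3). These 129 were picked by nearness to a separate control peak that no mutant had, which bears on their spans. This p therefore cannot decide whether their spans differ. Over all 11035 gene-end regions in all 5 libraries the spans were 1428 and 1332 bp against 1243, 1268 and 1004 bp (exact two-sided permutation test, p = 0.2, n = 2 and 3), with no overlap between the groups.

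Some genes carried more than 1 of the regions. There were 638 genes in all with at least 1, and 22 with 2 or more. At 8 genes both the start and the 3' end were concerned. Anxa5, Fancc, Myo7a, Scn4a and 1810062G17Rik had a region at each end, whereas at Gja10, Hspb3 and 4930591A17Rik a single region lay within 1 kb of both. Fancc stood out by strength, with folds of 6.94 and 5.79 at its 3' end, chr13:63301021-63302435, and of 4.68 and 6.60 at its start, chr13:63496517-63497433. It had no further gene-end region. Riiad1 was the single gene with 3, at folds of 3.81 and 5.12, 3.47 and 4.18, and 3.29 and 2.96. Sox9, the master regulator of cartilage formation, had 2 of its 3 gene-end regions among the 626, with folds of 3.29 and 3.37 at chr11:112788529-112788805 and of 3.47 and 3.10 at chr11:112787770-112788448. Its remaining region was present in all 5 libraries. Regions shared by the ends of several genes, as at bidirectional promoters, were seldom absent: 34 of 2238 (1.52%), beside 4.61% over all gene-end regions. The strength of these regions was not compared with that of the others, so the shares are not matched for strength.

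Promoters without a mutant peak were poor in CpG. RefSeq windows of 300 bases, 250 before to 50 after a start, were overlapped by 151 of the 626 regions, including 144 of the 296 start regions. This gave 163 windows of 154 genes without an overlapping region of all 5 libraries. The ratio of observed CpGs to the number that the C and G content predicts had a median of 0.355 in these windows, with quartiles of 0.213 and 0.513, and 29 of them (17.8%) were above 0.6. This percentage was 31.6% and 41.0% when every list was limited to peaks whose −log10 q reached 5 and 10, and 30% with lists of equal length, each with another set of regions. Windows with a region in all 5 libraries, 11212 in number, had a median of 0.794 and were above 0.6 in 79.4%. Windows with a region in both controls and 1 or 2 mutants were between at 0.538 and 42.4%. Another 613 windows had a peak whose region was not in both controls, and they were close to the 163, at 0.366 and 23.7%. A low ratio was thus not particular to promoters without a mutant peak. The 7069 windows with no peak in any library were lowest, at 0.181 and 4.37%. The median number of CpGs per window was 7 where no mutant had a peak and 22 where every library had 1, and the GC content 54.7% and 62.7%.

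The order was the same within bands of control strength. Within deciles 1 and 2 of control strength, the 75 windows without a mutant peak had a median ratio of 0.366 and the 38 present in all 5 had 0.619. In deciles 3 and 4 the medians were 0.345 over 53 windows and 0.671 over 186, and in deciles 5 and 6 they were 0.395 over 29 and 0.655 over 575. In deciles 7 and 8 only 6 windows without a mutant peak were left, at 0.385 against 0.760. The same direction was thus seen at each step, and the windows in 1 or 2 mutants were between in all 4. Ccdc60 (0.606), Bsx (0.548) and Fgf7 (0.720) were above the median of their class and Svopl (0.222) and Dppa1 (0.0661) below it.

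**Figure D3:**
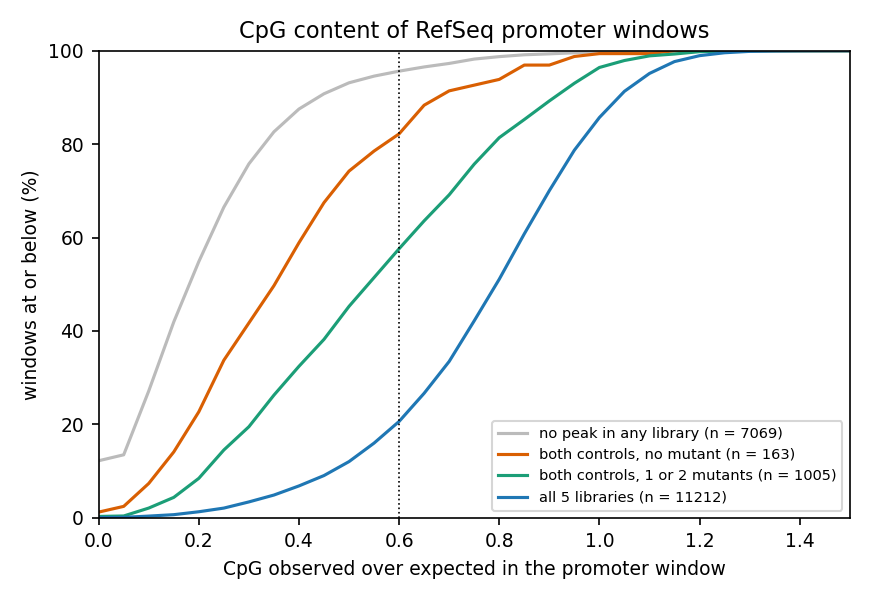
Cumulative share of RefSeq promoter windows (y axis, %) by the ratio of observed to expected CpGs (x axis) for windows with no peak in any library, in both controls and no mutant, in both controls and 1 or 2 mutants, and in all 5 libraries, with a dotted line at 0.6. The curve of the 163 windows without a mutant peak lies between those of windows with no peak and windows in 1 or 2 mutants, with a median of 0.355. The 613 windows whose region was not in both controls, with a median of 0.366, are not drawn.

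Short motifs were counted on both strands of the same windows, each as an exact match to letters chosen after the files were seen, with N for any base. The GC box GGGCGG was in 36.8% of the 163 windows, 69.6% of those in all 5 libraries and 47.0% of all 20062 windows, a motif that itself contains a CpG. The E-box CANNTG was in 77.9%, against 68.7% of all windows and 60.5% of those in all 5 libraries. The TATA box TATAAA was in 9.20%, between the 12.7% of all windows and the 5.68% of those in all 5 libraries. The AP-1 element TGANTCA was in 8.59%, against 7.06% and 3.79%, and CCAAT in 39.9%, against 38.1% and 38.2%. The homeodomain core TAATTA was in 3.68% against 4.48%, and the TEAD element GGAATG in 13.5% against 13.4%. The GLI element TGGGTGGTC, the site of the Hedgehog effectors, was in 1 of the 163 windows (0.613%) and in 0.174% of all. All windows include 7069 with no peak in any library.

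Promoter windows at large were counted in each library as well. The same peak calls chose the 626 regions, so the values are given as a description without a p-value. Of 3495 windows with a ratio of 0.6 or less and a peak in at least 1 library, controls 1 and 2 had a peak in 90.2% and 86.5%, against 71.2%, 78.2% and 60.4% for mutants 1, 2 and 3. The mean was 88.4% ± 2.63 (SD, n = 2) in controls and 69.9% ± 8.95 (SD, n = 3) in mutants, a difference of -18.4 percentage points with no overlap. Of 9498 windows above 0.6, the controls had a peak in 98.8% and 98.0%, and the mutants in 96.0%, 97.8% and 91.5%, a difference of -3.28 points. The gap between CpG-rich and CpG-poor windows was 24.8, 19.6 and 31.1 points in the mutants, above both controls, with a difference of means of +15.2 points. With windows touched by the 626 regions left out, which takes peaks from the controls alone, 3361 CpG-poor windows remained and the difference was -15.5 points, as the third panel of the plot of library values shows. These differences shrank with lists of equal length. With no window left out, the CpG-poor difference was then -4.57 points, with mutant 2 between the controls, the CpG-rich difference was +0.480 points, and the gap was wider in the mutants by 5.05 points.

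The balance of sides was counted among the gene-end peaks of each library at genes with strand at hand, again as a description without a p-value. Peaks at 3' ends made up 9.82%, 13.8% and 6.16% of them in mutants 1, 2 and 3, against 13.1% in each control. The mutants thus lay on both sides of the controls, with a difference of means of -3.15 points. With the 626 regions left out, which lowers the control shares alone, the controls had 12.2% and 12.1% and the difference was -2.23 points. With lists of equal length and no region left out the shares were 7.34%, 8.58% and 6.16% in the mutants, against 5.78% and 6.13% in the controls, a difference of +1.40 points, so the direction turned. Mutant 2 had 1553 regions at 3' ends in all, beside 1539 and 1501 in the controls, 1030 in mutant 1 and 606 in mutant 3. Of those of mutant 2, 40.1% were absent from control 1 and 39.9% from control 2. The controls differed from each other as well, since control 2 lacked 29.9% of the 3' regions of control 1, and control 1 lacked 28.1% of those of control 2. At starts these shares were 7.45% and 3.73%. Calls at 3' ends thus differed more between the 2 controls than calls at starts did.

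The genes with one of the 626 regions were also followed through their other regions, inside the gene or within 10 kb of it. Of 3379 such regions, the mutants held 38.0%, 50.8% and 27.2%, against 73.2% and 60.6% for controls 1 and 2. All 3 mutants were below both controls, with a mean difference of -28.2 points (exact two-sided permutation test, p = 0.2). The same difference over 63705 regions of all protein-coding genes was -27.9 points (exact two-sided permutation test, p = 0.2). Leaving out the 626 regions themselves takes peaks from the controls alone. The difference was -29.0 points for genes with a region at the start only and -25.4 points for those with one at the 3' end only (exact two-sided permutation tests, p = 0.2 for each). The difference at the genes with one of the 626 regions was thus close in size to that over all genes, and the 2 were not tested against each other. With lists of equal length it was -8.17 points. The smallest p that 2 against 3 libraries allow is 0.2, so no comparison of this design can pass 0.05. Over the 6 such tests reported here, on these shares and on the spans of shared regions above, the Benjamini-Hochberg adjusted exact permutation p was 0.24 to 0.4.

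**Figure D4:**
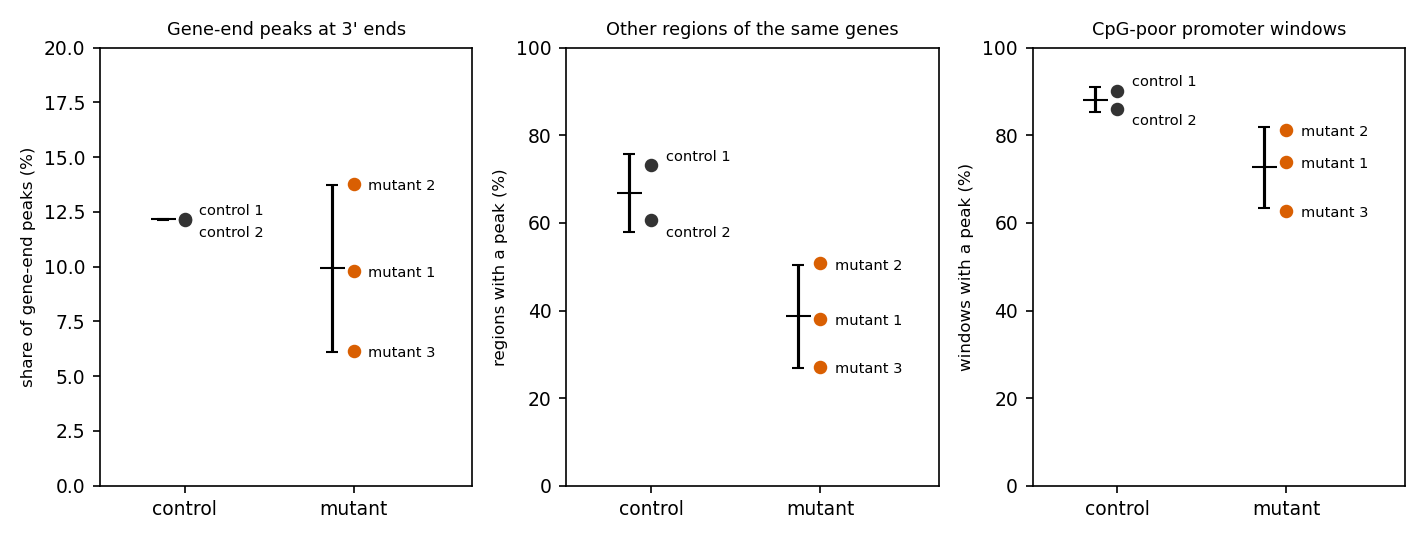
Values of each library with mean and SD for 3 measures that leave the 626 regions out: the share of gene-end peaks at 3' ends, the share of other regions of the same genes that a library holds, and the share of CpG-poor promoter windows with a peak (y axes, %). Mutants lie on both sides of the controls in the first panel and below both controls in the other panels. The first panel counts only peaks at genes with strand at hand.

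Pathway and cell type lists place these genes in the limb bud. Over all genes 4.61% of gene-end regions of both controls had no mutant peak, and among those in the weaker 5 deciles 21.0%. Of the 18 lists 12 were above the first value, 4 below it and 2 without any such region, blood and muscle. In 16 of the 18 lists the median strength was below that of all gene-end regions, so both values are given as background. The lists and the regions were both chosen with results known, and no list was tested.

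WNT signalling, which patterns the dorsal side of the bud and maintains its apical ridge, had 8 of 61 regions (13.1%), and 7 of its 21 weak regions. They were spread over the pathway. Of the receptors, Fzd4 is given above. Fzd1 had folds of 3.64 and 3.37 at its 3' end, only 27 bp from a region of all 5 libraries, and the co-receptor gene Lrp5 had 3.12 and 4.58. Of the ligands and their antagonists, Wnt10a had 3.29 and 2.56 and Wif1, a secreted inhibitor, 4.68 and 4.04. Inside the cell, the effector gene Ctnnb1 (beta-catenin) had 2.77 and 3.23 and the feedback inhibitor genes Axin2 and Nkd2 had 2.95 and 2.96, and 3.12 and 2.69. At 5 of the 8, Fzd4, Fzd1, Wif1, Ctnnb1 and Nkd2, the region was at the 3' end, and all 5 kept a start region in every library. So did 136 of all 184 genes with a region at the 3' end only. The region of Axin2 was its only gene-end region of both controls.

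FGF signalling, the exchange between mesenchyme and ridge, had 3 of 31 regions (9.68%). Besides Fgf7 these were at the start of Fgf9, with folds of 3.99 and 3.50 and a mutant peak 53 bp away, and beyond the 3' end of the receptor gene Fgfr2, with 4.85 and 3.23 and the nearest mutant peak at 86824 bp. Fgfr2 kept a start region in all 5 libraries, whereas Fgf9 had none. Fgf7 had no other gene-end region of both controls, so it could not have one in all 5. In Hedgehog signalling, on which the series centres, that of Hhip was the single region absent among 41 of Hedgehog targets (2.44%), and among 32 of the pathway 2 were absent (6.25%), on either side of the 4.61% over all genes. These were the 3' regions of Gpr161, an inhibitory receptor of the pathway, with 4.51 and 3.91, and of the ligand-binding Cdon, shared with Gm1113, with 3.47 and 3.91. BMP signalling had 1 of 32, at Gdf6, with 3.12 and 3.64, and retinoic acid 1 of 25, at the start of the nuclear receptor gene Nr2f2, with 3.99 and 3.50. In the TGF-beta and Notch list there were 2 of 37. The Smad2 region, chr18:76311986-76312640, had 5.72 and 4.99 and was the stronger, and that of Notch1 at the 3' end had 3.12 and 3.10.

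Genes of limb patterning and skeleton differed in count. The limb mesenchyme list had 1 of 41 regions (2.44%), at Irx5, with folds of 3.64 and 2.96, and 1 of its 13 weak regions. The cartilage and bone list had 4 of 32 (12.5%), and 4 of 17 weak ones (23.5%), close to the 21.0% of weak regions over all genes. Besides the regions of Sox9 they were at the starts of Runx3, a skeletal transcription factor gene, with 3.99 and 3.23, and of Barx1, a homeobox gene of joints and face, with 3.99 and 3.10. Hox genes, the patterning clusters, had 3 of 57. Hoxb13 had 4.16 and 3.64 over an end of the gene, Hoxb9 3.12 and 2.83, and Hoxa3 3.29 and 2.56. The BAF complex itself had 2 of 42, at the start of Smarcd3, with 3.64 and 3.37, and at the 3' end of Dpf1, with 3.47 and 2.56, both genes of subunits that are used in some tissues.

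Genes of other cell types of the bud, where Prx-Cre is not expected to act, were also among the 626. Endothelium had 4 of 27 regions (14.8%), and 4 of its 14 weak regions: at the starts of the VEGF receptor genes Flt1 (3.81 and 3.10) and Flt4 (3.81 and 3.10), at Ramp2 (3.29 and 3.23), and at a 3' region that Eng shares with Fpgs (3.12 and 2.83). Flt1 and Flt4 each kept another start region in all 5 libraries. Ramp2 had no gene-end region in all 5, and Eng had no other gene-end region of both controls. The list of 30 endothelial genes as a whole had a gene-end peak at 24 and 20 genes in the controls and at 18, 20 and 16 in the mutants. Ectoderm had 3 of 35, at Krt14 (3.64 and 3.23), En1 (3.47 and 3.23) and Fgf9. En1 kept another start region in all 5 libraries, whereas Krt14 had no other gene-end region of both controls. Of 32 ectoderm genes 27 had a gene-end peak in each control, and 26, 27 and 18 in the mutants. Neurons had 3 of 37, among them those of Neurod1 and Snap25 (3.64 and 3.37), and neural crest 1 of 15, at Dct. The neuronal list had a gene-end peak at 36 and 34 of 40 genes in the controls and at 28, 32 and 23 in the mutants, and the neural crest list at 15 and 13 of 20 against 12, 13 and 12. The germline list had 1 of 6, at the egg coat gene Zp2 (2.95 and 3.23). Muscle had 0 of 20 and blood 0 of 12, although muscle genes with a gene-end peak numbered 16, 20 and 9 of 31 in the mutants, against 23 and 19 in the controls. The part of cell type makeup in the result was not tested.

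**Figure D5:**
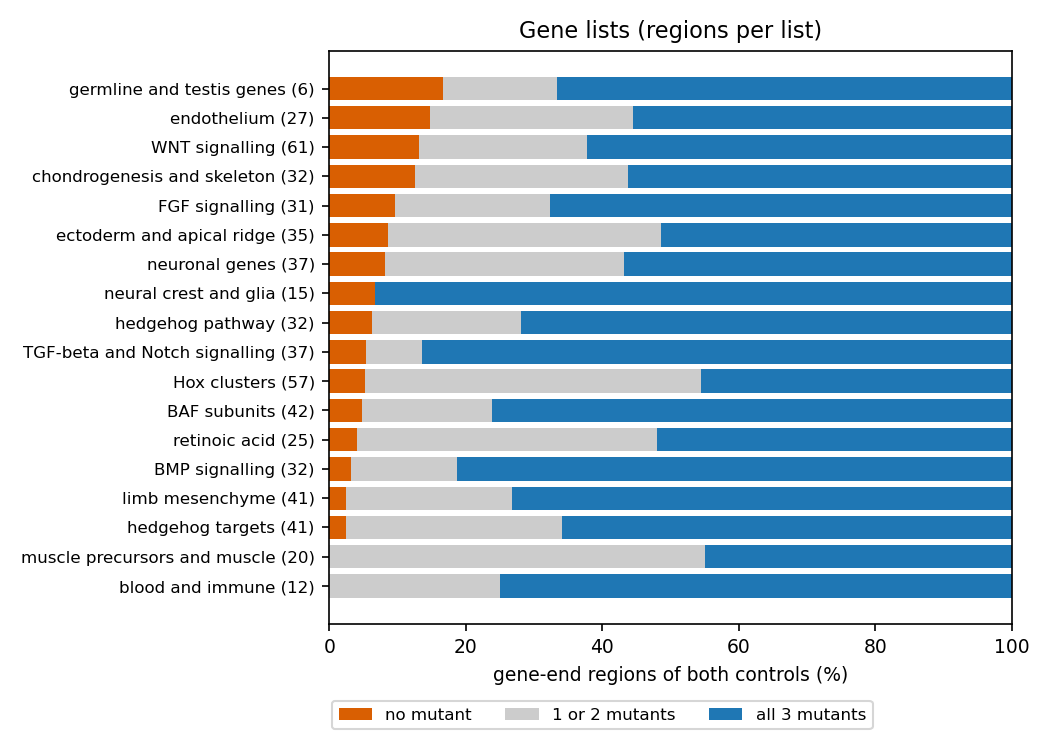
Share of the gene-end regions of both controls in each of 18 gene lists (x axis, %) that had a peak in no mutant, in 1 or 2 mutants or in all 3, with the number of regions in parentheses. The share in no mutant is 13.1% for WNT signalling, 2.44% for limb mesenchyme and 0 for muscle and blood.

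Among gene families, keratins and their associated proteins, the filaments of epithelia and hair, had 5 of 16 regions (31.2%). Beside Krt14 they were Krt35, with folds of 4.85 and 4.18, Krt90, with 3.47 and 4.58, Krt19, with 3.81 and 3.10, and Krt32, with 3.29 and 2.96. At each of these 5 genes it was the only gene-end region of both controls, so none could have one in all 5 libraries. Several groups of widely used genes were at the low end. Zfp zinc finger genes had 4 of 347 (1.15%), mitochondrial ribosomal proteins 1 of 89, cytosolic ribosomal proteins 2 of 94 and histones 0 of 51. Both regions of cytosolic ribosomal proteins lay beside a kept region, that of Rpl12 at 385 bp and that of Rps15a at 320 bp. Collagens had 3 of 34, all at starts: Col6a1, Col8a1 (4.16 and 3.37) and Col8a2 (3.12 and 2.83). Solute carriers, with Slc26a7 in the lead, had 15 of 302 (4.97%), close to the 4.61% of all genes. The strength of the regions was not compared between families, so these shares are not matched for strength.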

How the data were processed

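The labels' genotypes gave 2 controls and 3 mutants, each library from a separately genotyped embryo, numbered by sample order without pairing. The tools were bcl2fastq 2.20.0, Bowtie2 2.3.5 (mm10) and MACS2, per the submitters' processing notes. The version and options of MACS2, removal of duplicates and the shift to the transposase cut site were not given in the sources used here. Each library has its own peak list, as the authors deposited it. In the MACS2 format, a deposited line holds positions and a summit (other values, in bp), a score, a fold enrichment ratio, and a −log10 p-value and −log10 q-value. The deposited score was not used. The authors' fold is relative to the background of its own library and ranks peaks only within a list. Pileup and background were computed from the even steps of the deposited folds.

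Peaks on chromosomes 1 to 19 were merged at 1 bp. Gene ends came from RefSeq, GRCm38.p6, and strand from its promoter table, which covers 16456 of 20661 protein-coding genes and none on chromosome 18. No exon annotation was used here, so positions are given relative to gene ends only. Strength was the mean percentile of fold in the control lists. Other regions of the same genes and spans of shared regions were compared by exact two-sided permutation over the libraries. The share of peaks at 3' ends, planned as a test, is given without a p, since leaving out the 626 regions takes peaks from the controls alone. Permutation tests were also computed for this share, for promoter windows by CpG and in the alternatives. Their p-values are not reported and were not among the 6 that were adjusted. Scripts ran in Python 3.11.15 with numpy 2.4.6, pandas 2.3.3, scipy 1.17.1 and matplotlib 3.10.9 and were tested on simulated data.

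The regions, the 18 gene lists, the 17 gene families and the tests were chosen with earlier results of these data known. Named genes were the 15 strongest regions, the 3 strongest starts and 3' ends, up to 4 per list, genes with regions at both ends or with 3, the regions nearest the 1 kb limit, and the weakest. A region that this rule takes is not reported here. Col6a1 and the genes named under families were chosen after their values were seen. Alternatives were stricter q-value limits, a larger overlap, other distances, the summit in place of the region, lists of equal length, no mutant peak within 500 bp, and each library left out.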

Additional observations from a re-analysis of the deposited data

How the results depend on the processing

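The number of regions (626) and the numbers at starts (296) and 3' ends (174) depended most on list length and on single libraries. With lists of equal length there were 108, 40 and 35. At 500 bp from a gene end there were 417, with 105 at 3' ends, and at 2 kb 1012, with 284 at 3' ends. A limit of 10 on −log10 q left 77 at 3' ends, and no mutant peak within 500 bp left 184 at starts. Leaving out 1 library each gave 674 to 1839 regions, 319 to 831 starts and 185 to 516 3' ends.

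The share of gene-end regions of both controls absent from every mutant (4.61%) was 3.97% at a −log10 q of at least 5, 3.36% at 500 bp, 6.55% at 2 kb, 4.16% by summit, 1.00% with equal lists and 3.24% with no mutant peak within 500 bp, and 4.97% to 12% leaving out 1 library. In the same order the share of starts (3.43%) was 2.87%, 2.55%, 4.71%, 3.04%, 0.546% and 2.14%, and 3.70% to 8.82% leaving out 1 library. The share of 3' regions (16.1%) was 22% at a −log10 q of at least 10, 13.7% at 500 bp, 8.33% with equal lists and 13.1% with no mutant peak within 500 bp, and 17.2% to 33.3% leaving out 1 library. It was above the share of starts in every setting run.

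The share within 1 kb of a region of all 5 libraries (21.1%) was 9.41% and 4.28% at a −log10 q of 5 and 10, 12% at 500 bp, 3.70% with equal lists and 2.73% with no mutant peak within 500 bp, and 20.4% to 27.9% leaving out 1 library. The percent of promoter windows above a CpG ratio of 0.6 (17.8%) was 31.6%, 41.0% and 30% at a −log10 q of 5 and 10 and with equal lists, and 18.6% to 25.8% leaving out 1 library. The difference in the share of gene-end peaks at 3' ends reversed to +1.74 points with equal lists (+1.40 with no region left out). It was -3.63 to -0.104 points leaving out 1 library, which changes both the libraries in the means and the regions left out. That in other regions of the same genes was negative in all 13 alternatives, -37.7 to -8.17 points. The share values by side, the alternatives with no region or window left out, the CpG alternatives and those for single named regions were added after the data were seen. Distances, overlap and left-out libraries change the counts by construction, and for the other changes the cause was not tested.

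A stricter q-value gave fewer regions, and many were other ones. At a −log10 q of at least 5, 489 were found, 233 of them among the 626, while a limit of 10 gave 491 and 39. All 15 of the strongest 15 stayed, which follows from their strong control peaks, since a stricter limit only removes peaks. Of 74 named regions 42 were still found with lists of equal length. No paired analysis was possible because replicate numbers only follow the order of the samples. Depth limits all of this: a region without a peak may be open below a fold of 2.46 to 2.52 in the mutants, and read numbers are unknown.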
